A study of Mus musculus with 2 samples.

Results

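Lhx6-negative Dlx nuclei are the non-dividing nuclei of whole fetal mouse brain that held RNA of the Dlx homeobox genes and no RNA of Lhx6. They were chosen by their own counts. A nucleus had to have at least 500 detected genes and at most 5% mitochondrial UMIs, at least 3 UMIs in sum of Dlx6os1, Dlx1, Dlx2, Dlx5 and Dlx6, 0 UMIs of Lhx6 and Sfta3-ps, and at most 4 UMIs in sum of the 7 dividing-cell genes Top2a, Mki67, Kif11, Kif23, Knl1, Cenpf and Aspm. A UMI is a molecular tag that counts copies of 1 captured RNA once. The rule found 815 nuclei, 402 of 6686 in the wildtype library and 413 of 6680 in the Cav1 knockout library, out of 13366 nuclei past the filters. The study compared the brain of wildtype and Cav1 knockout fetuses by single-nucleus RNA-seq on the 10x Genomics platform, with 1 library per genotype. Nuclei came from frozen whole brain, and the labels name the age only as fetal and give no strain, no allele and no number of animals. Cav1 encodes caveolin 1, a coat protein of the small membrane pits called caveolae, and the series' title places it in metabolic programming of the fetal brain.

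Dlx genes encode homeodomain transcription factors of the ventral forebrain, where they drive progenitors of the ganglionic eminences towards GABA-releasing neurons. Neurons of the medial eminence go on to express Lhx6, whereas those of the lateral eminence become striatal projection neurons and olfactory bulb interneurons, and those of the caudal eminence become other cortical interneurons, for the most part without Lhx6. Dlx genes are also active in prethalamus and parts of the hypothalamus, so that Dlx RNA without Lhx6 RNA marks several lineages rather than a single cell type.

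The 402 wildtype-labelled nuclei held 1037767 UMIs and the 413 knockout-labelled nuclei 1357591 UMIs. Their median nucleus had 1933.5 and 2372 UMIs, beside medians of 2133.5 and 2366 over all nuclei past the filters. Of the members, 116 and 114 had exactly the required 3 Dlx UMIs, while 202 and 197 nuclei with 2 Dlx UMIs fell just outside the Dlx limit. The nuclei at 3 Dlx UMIs held a mean of 2.43 and 2.42 UMIs of Gad1 and Gad2, the enzymes that make GABA, against 1.91 and 2.12 at 2 Dlx UMIs and 3.08 and 2.90 above 3. The libraries shared 43 cell barcodes, of which 2 belonged to wildtype-labelled members and 0 to knockout-labelled ones. Because a genotype is 1 library, no difference between the genotypes has a replicate check. Levels are in CPM, a gene's UMIs scaled by the UMI total of the nuclei summed. Every interval is a 95% interval for counting error only, and a gene with 100 or more UMIs is called apart when it differs by 2-fold or more.

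The targeted gene did not separate the libraries in these nuclei. Cav1 had 2 UMIs in 2 of 402 wildtype-labelled members and 3 UMIs in 3 of 413 knockout-labelled members, shares of 0.50% (0.06% to 1.79%) and 0.73% (0.15% to 2.11%). In nuclei with 3 or more UMIs of Neurod2 and Neurod6 and no Dlx UMI, cortical-type excitatory neurons that serve as a reference for RNA from outside the nucleus, 0 of 410 had a Cav1 UMI, which allows up to 0.90%, and 4 of 364, a share of 1.10% (0.30% to 2.79%). Those reference nuclei were deeper, with medians of 2854 and 3131 UMIs. Cav1 was at that background in the members of both libraries. Over all other nuclei past the filters it had 69 and 77 UMIs, or 4.27 and 4.16 CPM. Since the gene does not bear out the labels here, the libraries are called by their labels throughout.

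The selected nuclei were also high in inhibitory genes that the rule did not use. Of these genes, Gad2 and Syt6 were markers given for these nuclei, and the list was chosen with earlier results of these data known. The values are therefore a description. Gad1 had 381 UMIs (367 CPM) in wildtype-labelled and 357 UMIs (263 CPM) in knockout-labelled members. Gad2 had 783 UMIs (755 CPM) and 785 UMIs (578 CPM). Against all other nuclei past the filters, Gad2 was higher by a log2 ratio of 2.03 (1.91 to 2.14) and 1.77 (1.66 to 1.89), wildtype-labelled library first here and throughout, and Gad1 by 2.18 and 1.66. With every nucleus thinned to 1000 UMIs, 53.8% and 47.4% of members had a Gad2 UMI, against 2.50% and 3.12% of the Neurod reference nuclei. Of the 7 genes of the Dlx and GABA core list that were outside the rule and had 100 or more UMIs, 6 were called higher in both libraries, among them Gad1, Gad2, the vesicular GABA transporter gene Slc32a1, the zinc finger gene Sp9 and the synaptotagmin gene Syt6. Slc32a1 was at 1.04 (0.57 to 1.49) and 1.28 (0.95 to 1.6), Sp9 at 1.74 and 1.70 and Syt6 at 1.27 and 1.28. Over all 5052 genes compared in this way, 0.792% were called higher and 0.277% lower in both libraries. The vesicular glutamate transporter Slc17a6 stood on the other side, at 46.3 and 57.4 CPM in members against 117 and 128 CPM elsewhere, and was 1 of the genes called lower.

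The 15 genes highest in the members over all other nuclei clustered at few places in the genome. Of these, 7 lay at the Dlx loci that the rule itself used. On chromosome 6 they were the long noncoding RNA Dlx6os1 (6749740 to 6871632, minus strand), Dlx6 within it on the plus strand (6862989 to 6868568) and Dlx5 (6877804 to 6882092, minus strand). On chromosome 2 they were Metap1d (71283618 to 71355538, plus strand), Dlx1as (71346798 to 71369624, minus strand), Dlx1 (71358457 to 71364325, plus strand) and Dlx2 (71373752 to 71377102, minus strand). Positions are from GENCODE M39 on GRCm39. Dlx6os1 led with 1768 UMIs (1704 CPM) and 1929 UMIs (1421 CPM), a log2 ratio over other nuclei of 3.88 and 3.71. The Dlx values come from the counts that selected the nuclei and are given as a description. Metap1d, a mitochondrial methionine aminopeptidase gene whose 3′ end overlaps Dlx1as on the opposite strand, was at 320 and 305 CPM against 80.3 and 79.4 CPM elsewhere. It was not in the rule. Whether the counting used the strand is not given in the sources used here, so it is not known if its reads were kept apart from those of Dlx1as.

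A further 4 of the 15 lay at the Sox2ot locus on chromosome 3. Sox2ot, a long noncoding RNA that spans the Sox2 gene (34158419 to 34789489, plus strand), had 4776 and 5265 UMIs. It made 4602 and 3878 CPM in members against 796 and 727 CPM elsewhere, log2 ratios of 2.53 (2.48 to 2.58) and 2.42 (2.37 to 2.46). Gm38505 (34284523 to 34405873, minus strand), which lies wholly within it on the opposite strand, was nearly as abundant, with 4001 and 4586 UMIs and log2 ratios of 2.68 and 2.67. Gm20515 and Gm42692 also lie within Sox2ot and had at most 78 UMIs in a library. Sox2 itself had 60 and 64 UMIs, 57.8 and 47.1 CPM against 31.5 and 29.9 CPM elsewhere, with log2 ratios of 0.88 and 0.66, and was not called. Another 2 genes were the neighbouring noncoding transcripts Gm45680 and B020031H02Rik on chromosome 8 (11995262 to 11998545, minus strand, and 11998339 to 12050216, plus strand), with log2 ratios of 2.72 and 2.74, and of 3.12 and 2.94. The last 2 were Nrxn3, a presynaptic adhesion gene with 12586 and 14627 UMIs and log2 ratios of 2.18 and 1.95, and the cation channel gene Trpc4 with 102 and 130 UMIs and ratios of 2.18 and 1.84. These 15 genes were all higher in both libraries by construction of the choice, and the sizes are descriptive.

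RefSeq promoters, 250 bases before to 50 after a transcript's start on GRCm38.p6, were searched for TAATTA, a core sequence that homeodomain proteins, DLX proteins among them, can bind and that reads the same on both strands. It occurred in 5.29% of all 32851 promoters in the table. The table held 7 of the 15 leading genes, and of these Dlx6os1 alone had the motif, in both of its promoters. Syt6, a marker given for these nuclei, had it in 1 of 3 promoters. Dlx1, Dlx2, Gad1, Gad2, Slc32a1 and Sp9 had 1 promoter each and no match. Dlx5, Dlx6, Dlx1as, Sox2ot, Gm20515, Gm42692, Gm45680 and B020031H02Rik had no promoter in the table, so they were not searched for the motif. The 3 promoters with a match are shown because 2 belong to the gene that leads the nuclei and 1 to a marker outside the rule, with TAATTA in capitals, 5′ to 3′ on the strand of the gene. They are chr6:6869484-6869783 and chr6:6861634-6861933, both on the minus strand, and chr3:103574995-103575294 on the plus strand.
Dlx6os1 first promoter: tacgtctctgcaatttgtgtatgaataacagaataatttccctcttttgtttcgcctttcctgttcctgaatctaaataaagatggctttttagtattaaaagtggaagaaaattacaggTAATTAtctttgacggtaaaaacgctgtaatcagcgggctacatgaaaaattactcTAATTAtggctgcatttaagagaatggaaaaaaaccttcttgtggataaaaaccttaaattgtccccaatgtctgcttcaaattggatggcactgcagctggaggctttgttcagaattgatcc
Dlx6os1 second promoter: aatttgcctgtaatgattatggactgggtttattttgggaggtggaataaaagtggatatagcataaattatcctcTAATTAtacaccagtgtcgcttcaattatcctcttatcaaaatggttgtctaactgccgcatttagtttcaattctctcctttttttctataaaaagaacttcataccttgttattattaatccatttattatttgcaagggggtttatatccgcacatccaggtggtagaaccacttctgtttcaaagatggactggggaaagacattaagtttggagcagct
Syt6 promoter: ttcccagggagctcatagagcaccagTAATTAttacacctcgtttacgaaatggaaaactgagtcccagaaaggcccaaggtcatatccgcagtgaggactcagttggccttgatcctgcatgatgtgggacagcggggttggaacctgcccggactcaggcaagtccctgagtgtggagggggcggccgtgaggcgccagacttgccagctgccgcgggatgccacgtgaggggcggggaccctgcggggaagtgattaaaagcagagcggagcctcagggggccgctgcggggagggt
A match describes letters in a window and is not evidence of a bound site.

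Shares of nuclei with a UMI of single transcription factors were compared with those in the reference nuclei. At 1000 UMIs per nucleus, with 19 wildtype-labelled and 10 knockout-labelled members left out as too shallow, Isl1, a factor of direct-pathway striatal neurons, was found in 6.53% (4.27% to 9.49%) and 5.96% (3.85% to 8.73%) of members, against 1.5% and 1.14% of reference nuclei, and the members' intervals lay above those of the reference. Sp8, a factor of olfactory bulb and some cortical interneurons, was found in 3.39% and 1.99%, against 0 of 400 and 0 of 352 reference nuclei, which allow up to 0.92% and 1.04%. The interval of the second share, 0.86% to 3.87%, reaches below that limit. Tshz1, of olfactory bulb and intercalated amygdala neurons, was at 10.7% and 8.44% against 1.25% and 2.84%. Prox1, a factor of caudal eminence interneurons, was at 6.27% and 3.97% against 2.0% and 0.57%, and for both genes the members' intervals lay above those of the reference. Prox1 did not set members apart from the Lhx6-positive Dlx nuclei described below, where it was at 4.83% and 7.88%. Nr2f2, another caudal eminence factor, was at 11.5% and 10.9% against 6.25% and 4.26%, with intervals that overlapped in the wildtype-labelled library. Of the other striatal factors, Ebf1 was at 9.92% and 13.9% against 7.25% and 10.8%, and Six3 at 2.09% and 1.99% against 0.75% and 0.85%, with intervals that overlapped in both libraries. Foxp1, Foxp2, Meis2 and Nr2f1, often used as striatal, lateral or caudal eminence markers, were not found more often in members than in the reference nuclei beyond their intervals, and Meis2 was at 57.2% and 62.3% against 68.3% and 67.3%. As counted, without thinning, Isl1 was found in 10.2% and 12.8% of members and Sp8 in 5.22% and 7.26%, against 3.17% and 2.47%, and 0.49% and 0 of 364, in the reference.

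**Figure D1:**
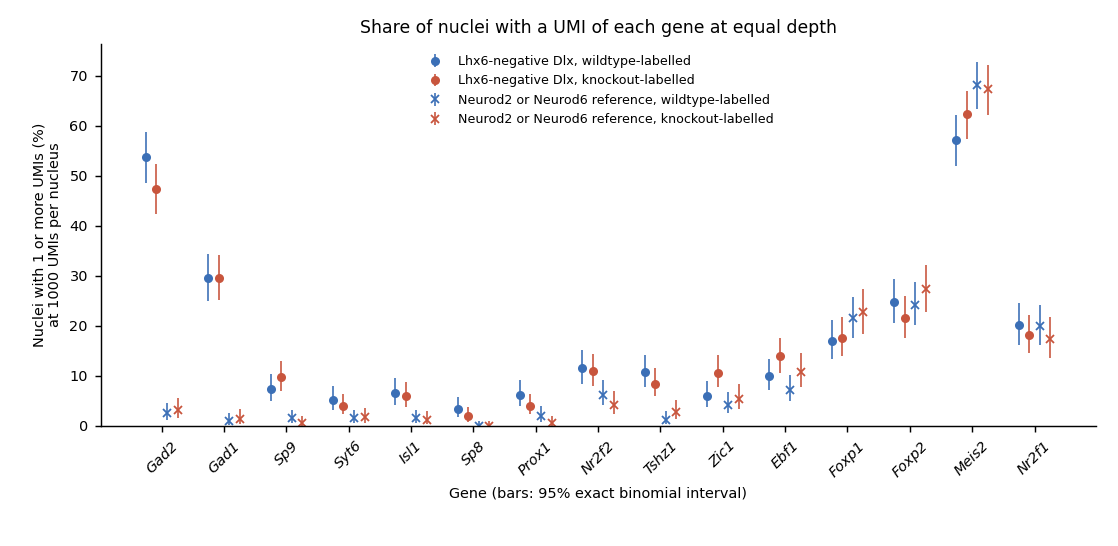
Share of nuclei with 1 or more UMIs of each gene after every nucleus was thinned to 1000 UMIs, for members (dots) and Neurod2 or Neurod6 reference nuclei without Dlx (crosses) of the wildtype-labelled (blue) and knockout-labelled (red) libraries, with exact binomial intervals. Gad2 is at 53.8% and 47.4% in members and at 2.50% and 3.12% in the reference, while Meis2 is not above it.

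Clustering of the members gave 10 clusters of 47 to 147 nuclei, numbered from 0 by size, and they bore out the label only in part. Cluster names were rebuilt from marker lists and are not the authors' annotation. A cluster and the genes that set it apart come from the same counts, so the log2 values below, of the cluster over all other members, are descriptions.

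Clusters 8, 6 and 3 carried the programmes that Dlx neurons without Lhx6 are known for. Cluster 8, of 52 nuclei, was striatal projection neuron-like. Ebf1, a factor of direct-pathway striatal neurons, had 396 and 343 UMIs there in the wildtype-labelled and knockout-labelled libraries and was higher by 4.48 and 3.51 (log2). The retinoic acid receptor gene Rarb was higher by 3.53 and 3.30, Isl1 by 3.27 and 2.86, Foxp2 by 2.06 and 2.60 and Bcl11b by 1.75 and 1.86. Dlx1 was nearly absent from it, with 1 UMI in each library, and these nuclei met the rule with a median of 3 Dlx UMIs.

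Cluster 6, of 60 nuclei, was olfactory bulb or septal-lateral eminence-like. Its leading factors were Etv1, with 24 and 50 UMIs and log2 values of 2.83 and 3.79, and Tshz1, with 49 and 30 UMIs and values of 3.07 and 2.76. Sp8 was higher by 1.84 and 3.22 and Synpr, a synaptic vesicle protein gene, by 2.92 and 2.19. Cluster 3, of 87 nuclei, was caudal eminence interneuron-like. The RNA-editing enzyme gene Adarb2 had 558 and 354 UMIs there, higher by 2.84 and 2.53, with Nr2f2 at 1.85 and 1.63, Nr2f1 at 1.38 and 1.92 and Prox1 at 1.92 and 1.07.

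Cluster 2, of 103 nuclei, was left unnamed because it met striatal and prethalamic lists by the same number of genes. Its Meis2 was the highest of the clusters, with 1095 and 656 UMIs, higher by 2.25 and 1.99, and Six3, a homeobox gene of striatal and prethalamic precursors, had 16 and 7 UMIs, higher by 4.27 and 1.80. The noncoding pair Gm45680 and B020031H02Rik named above also led this cluster, at log2 values of 3.17 and 3.25 over both libraries. Cluster 9, of 47 nuclei, was set apart by Zic genes, factors of septal and other midline cells, and by Prdm16, with Zic1 at 2.39 and 2.11 from 4 and 37 UMIs. Prdm16 was at 0.51 and 3.22 and Zic2 had 1 and 9 UMIs, so that the wildtype-labelled library, with 8 nuclei, says little on this cluster. It met a marker list by 3 genes only, and 39 of its 47 nuclei came from the knockout-labelled library, so that a type and a library cannot be told apart for it. Prdm12, a gene of the hypothalamic list, was also higher in cluster 9, by 3.77 over both libraries. It had 7 UMIs there, all knockout-labelled, while Otp and Sim1 of the same list had 0 UMIs.

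Clusters 1, 4 and 7 went against the label. Cluster 1, of 125 nuclei, was medial eminence-like although Lhx6 was at 0 by the rule. Nxph1, a neurexin ligand gene, had 602 and 522 UMIs, higher by 2.60 and 3.58, and the medial eminence factors Maf and Sox6 were higher by 2.83 and 3.11, and by 1.6 and 2.06, with Meis2 lower by −3.44 and −2.94. Erbb4, the neuregulin receptor of migrating interneurons, made 13319 and 13305 CPM there. Its median depth was 1798 UMIs. Beside the members, 66 and 67 nuclei missed the rule by a single UMI of Lhx6 or Sfta3-ps.

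Cluster 4, of 69 nuclei, was cortical excitatory neuron-like. Neurod2 and Neurod6, factors of cortical projection neurons, had 24 and 19 UMIs, higher by 1.19 and 1.71, and 34 and 24 UMIs, higher by 1.0 and 0.98. Of its nuclei 53.6% had 2 or more UMIs of Slc17a6, Slc17a7, Neurod2 and Neurod6, and 66.7% were among the 8% of their library with the highest Scrublet doublet scores. The part of doublets in this cluster was not tested. Cluster 5, of 65 nuclei, was left unnamed because it met the radial glia list by Sox2, Vim and Notch1 and the blood list by the same number of haemoglobin genes. In it Notch1 was higher by 1.42 and 2.65, with 7 and 12 UMIs, Sox2 by 1.01 and 0.99, with 7 and 4 UMIs, and Dlx2 by 1.30 and 1.6. Other radial glia genes did not go with these, with Slc1a3 at −1.79 and −0.69, Pax6 at 0.04 and −1.37 and Ptprz1 at 0.29 and −0.18. Cluster 7, of 60 nuclei, was dividing cell-like, led by the replication gene Clspn at 5.08 and 5.10, with Top2a at 3.20 and 3.40 under the limit of 4 dividing-gene UMIs.

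Cluster 0, of 147 nuclei, was the most numerous and the deepest, at a median of 4757 UMIs against 2113 over all members. It had the RNAs of differentiated neurons: the noncoding RNA Snhg11 had 372 and 852 UMIs, higher by 3.96 and 3.40, and the splicing factor gene Rbfox1 was higher by 0.93 and 1.30. Inhibitory genes were lower in it, Gad2 by −1.16 and −0.74 and Gad1 by −1.0 and −1.27. It met the brainstem inhibitory list by Gata3, Tfap2b, Lhx1 and Lhx5, but none of these was among its 10 leading genes, so it is not named here, a choice made after its genes were seen. Of its nuclei 28.6% had 2 or more excitatory UMIs and 29.3% were among the highest doublet scores, and their part in its profile was not tested.

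**Figure D2:**
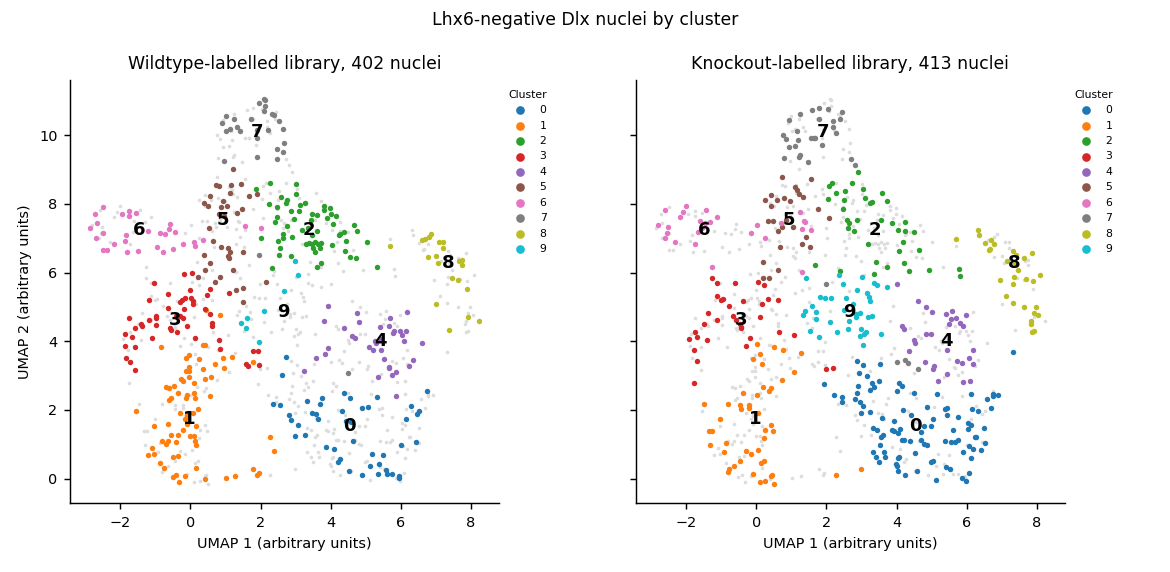
UMAP of the 815 nuclei (axes in arbitrary units), drawn for each library over all nuclei in grey and coloured by cluster. Clusters 6, 7 and 8 form separate arms, and cluster 9 is drawn from 39 knockout-labelled nuclei of its 47.

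**Figure D3:**
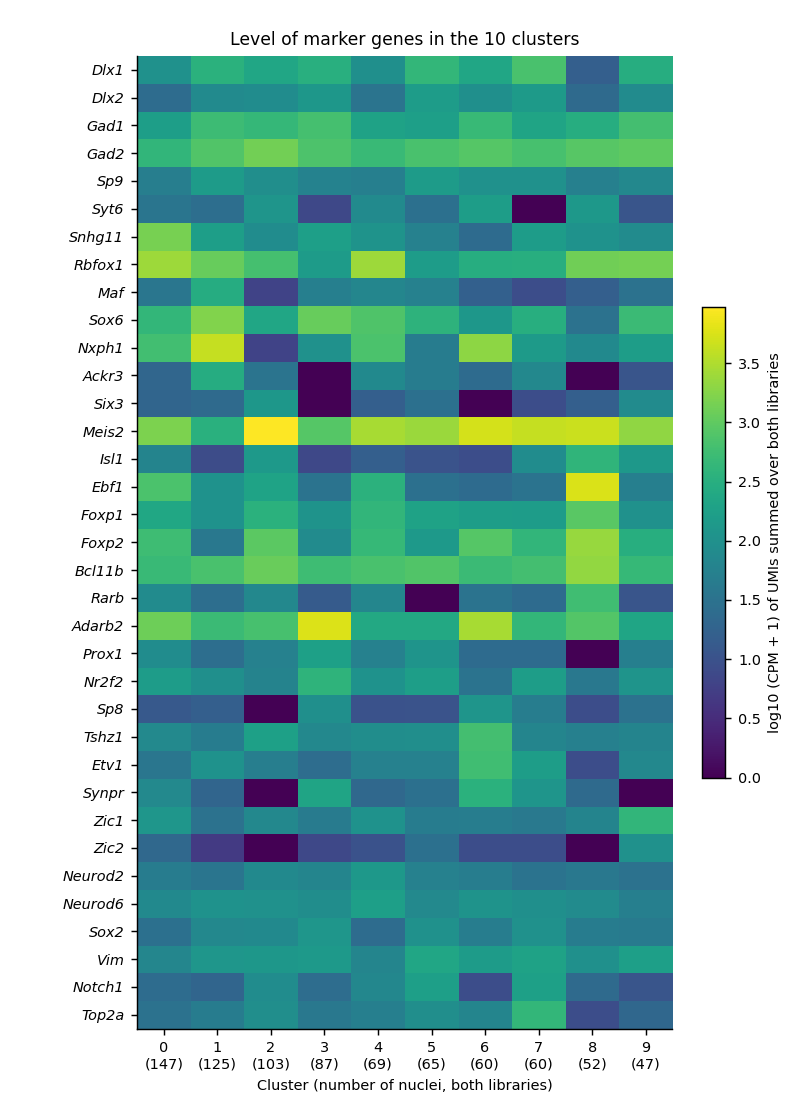
Level of marker genes in the 10 clusters, as log10 of CPM plus 1 over UMIs of both libraries, with the number of nuclei under each cluster. Ebf1 and Rarb are highest in cluster 8, Adarb2 in cluster 3, Nxph1 in cluster 1, Neurod2 in cluster 4 and Snhg11 in cluster 0.

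Lhx6-positive Dlx nuclei, which met the same rule but had 1 or more UMIs of Lhx6 or Sfta3-ps, are the nearest comparison, with 149 wildtype-labelled and 167 knockout-labelled nuclei. The nuclei were split on those counts, so the differences are a description of the split. Of 6669 genes, 0.105% were called higher and 0.12% lower in the Lhx6-negative nuclei of both libraries, 7 and 8 genes, the latter with Lhx6 and Sfta3-ps that made the split, beside a median over all genes of 0.02 in each library. Meis2 carried the best measured difference, with 3042 and 3445 UMIs (2931 and 2538 CPM) against 548 and 754 UMIs (1229 and 1078 CPM), a log2 ratio of 1.25 (1.12 to 1.39) and 1.24 (1.12 to 1.35). The others called higher were Isl1 at 1.37 and 1.40, Syt6 at 1.81 and 1.27, Dcdc5 at 2.46 and 1.57, Thsd7b at 1.6 and 1.01, the histone gene H2ac8 at 1.17 and 1.26, and the noncoding RNA E130006D01Rik at 1.31 and 1.23.

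On the other side, Sox6, which acts after Lhx6 in medial eminence interneurons, had 693 and 727 UMIs in Lhx6-negative against 773 and 810 in Lhx6-positive nuclei, a log2 ratio of −1.38 (−1.53 to −1.23) and −1.11 (−1.26 to −0.97). Gm45025, a noncoding RNA antisense to Sox6 and within it, moved with it at −1.26 and −1.28, and its reads may not be separable from those of Sox6. Mbip, which neighbours the Nkx2-1 region, was at −1.74 and −1.06, the G-protein regulator gene Rgs6 at −1.32 and −1.04 Pxylp1 at −1.02 and −1.22 and D130079A08Rik at −1.33 and −1.82. Nkx2-1, the medial eminence selector, was found in 0.26% and 0.74% of members and in 6.90% and 12.7% of Lhx6-positive nuclei at 1000 UMIs. Of the 7 core GABA genes compared, Syt6 alone was called, and the list's median was −0.27 and 0.04. Without the deep clusters 0 and 4, taken out of the Lhx6-negative nuclei only, 20 genes were higher and 83 lower. The Lhx6-positive nuclei kept their own deep nuclei, of up to 24323 and 69786 UMIs. These 2 counts therefore compare unlike mixes of nuclei, and no conclusion is drawn from them.

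**Figure D4:**
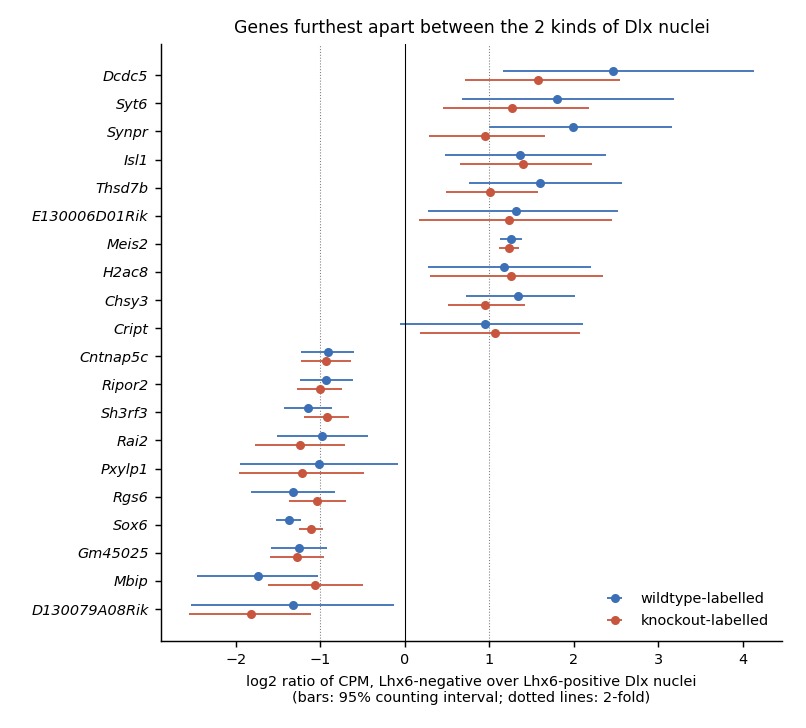
Log2 ratio of CPM, Lhx6-negative over Lhx6-positive Dlx nuclei, for the 10 highest and the 10 lowest genes, in the wildtype-labelled (blue) and knockout-labelled (red) libraries with 95% counting intervals and dotted lines at 2-fold. Meis2 and Sox6 have the narrowest intervals, at 1.25 and 1.24 and at −1.38 and −1.11.

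Between the libraries the share of Lhx6-negative Dlx nuclei differed by less than counting error. They were 6.01% (5.45% to 6.61%) of wildtype-labelled and 6.18% (5.62% to 6.79%) of knockout-labelled nuclei, a difference of 0.17 percentage points (−0.64 to 0.98, Newcombe interval). Thinned to 1000 UMIs before the rule, it was 3.73% (218 of 5840) and 3.88% (216 of 5569), a difference of 0.15 points. Of all non-dividing Dlx nuclei, 73.0% and 71.2% were Lhx6-negative, a difference of −1.75 points (−6.96 to 3.48).

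The median log2 ratio of CPM, knockout-labelled over wildtype-labelled, was −0.01 over 5052 genes with 100 or more UMIs, and the 5th to 95th percentiles ran from −0.43 to 0.50. Called 2-fold higher were 24 genes (0.475%) and called 2-fold lower 3 genes (0.0594%). The mix of clusters differed between the libraries, with cluster 0 holding 11.7% of wildtype-labelled and 24.2% of knockout-labelled members. Clusters were also rebuilt without the genes that were 2-fold apart between the libraries. The cluster that then held most of cluster 0 still took unequal shares, 9.45% of wildtype-labelled and 18.4% of knockout-labelled members. It also held 16 of the 47 nuclei of cluster 9. Since UMIs were summed, deep nuclei weigh more. Ratios below are therefore mostly set beside the value with every cluster given the same weight in both libraries. With that weighting 14 genes were called higher and 8 lower.

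The gene furthest apart lay at the Cav1 locus. Gm15581, a noncoding RNA on the minus strand of chromosome 6 (17206822 to 17385603) that spans Cav2 (17281026 to 17289877) and Cav1 (17306140 to 17341451) on the opposite strand, had 2 UMIs in 2 wildtype-labelled members and 125 UMIs in 86 knockout-labelled members. That is 1.93 against 92.1 CPM, a log2 ratio of 5.58 (3.70 to 8.64), and 6.22 with equal cluster weights. Each cluster had 0 or 1 wildtype-labelled UMI and 2 to 63 knockout-labelled UMIs. Cav2, a partner of caveolin 1 in caveolae, had 1 UMI against 40 UMIs in 31 nuclei, a log2 ratio of 4.93 (2.37 to 10.27), and 4.30 with equal weights. The same difference was present outside these nuclei: over all other nuclei Gm15581 had 60 against 1709 UMIs, a log2 ratio of 4.64, and Cav2 18 against 724 UMIs, a ratio of 5.13.

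Met, a receptor gene beyond Cav1 on the chromosome, had 0 and 8 UMIs, a count too low for a ratio, whose interval lies above 0 (lower limit 0.38). Tes had 33 and 60 UMIs, at 0.47 (−0.16 to 1.13), Capza2 had 83 and 100 UMIs, at −0.12 (−0.55 to 0.32), and St7 had 218 and 306 UMIs, at 0.10 (−0.15 to 0.36), all within counting error. Whether reads of Gm15581 were kept apart from those of Cav2 and Cav1 where they overlap is not known, as the strand setting is not given in the sources used here. Of the 13 caveola and membrane domain genes, 6 had 20 or more UMIs. Cav2 was higher and Cavin4, a muscle caveola coat gene, was at −0.80 (−1.54 to −0.08) with 40 and 30 UMIs and at −0.54 with equal weights, while Cav3 and Cavin1 had no UMI in either library.

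Rnf121, an E3 ubiquitin ligase gene of the endoplasmic reticulum and Golgi, was the gene furthest apart in the other direction. It had 153 UMIs in 106 wildtype-labelled members (147 CPM) and 70 UMIs in 56 knockout-labelled members (51.6 CPM), a log2 ratio of −1.52 (−1.95 to −1.10), and −1.60 with equal cluster weights. It was lower in each of the 9 clusters with UMIs in both libraries, and cluster 9 had 2 and 0 UMIs. Over all other nuclei it had 2749 and 1011 UMIs, a ratio of −1.64 (−1.75 to −1.53), so that its difference ran through both libraries as a whole.

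The remaining genes high in the knockout-labelled library differed in how far they rested on cluster 0 or on few nuclei. Trpm3, a cation channel gene, had 146 and 670 UMIs and stood at 1.81 (1.55 to 2.08). Of these, 103 and 594 UMIs were in cluster 0. It was at 1.19 with equal cluster weights and at 1.33 (0.54 to 2.18) without clusters 0 and 4, so that it stayed past 2-fold. Over all other nuclei it was at −0.02, but in Lhx6-positive Dlx nuclei it had 89 and 319 UMIs, at 1.19 (0.85 to 1.55). Htr2c, a serotonin receptor gene, had 11 and 110 UMIs, but 77 of the 110 were in 1 nucleus, and its ratio of 2.93 was 1.99 with equal weights and 1.49 without the richest nucleus of each library. Cntnap5a, at 1.36, was at 0.65 with equal weights and at 0.37 without clusters 0 and 4. It was at 0.91 over all other nuclei and at 0.97 in Lhx6-positive Dlx nuclei. Ano1, a chloride channel gene, had 23 and 84 UMIs and was at 1.05 with equal weights and at 1.58 without those clusters. It was among the leading genes of cluster 9, with 28 UMIs there over both libraries. That cluster, with 39 of its 47 nuclei knockout-labelled, stays in the second value. Mcc, Inpp4b, Ppm1h and Scn9a, with 79 to 101 knockout-labelled UMIs each, lay between 1.39 and 1.5 and between 0.86 and 0.97 with equal weights.

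Those lower in the knockout-labelled library had smaller ratios. The zinc finger gene Zbtb16 had 86 and 53 UMIs, at −1.09 (−1.61 to −0.58) and −0.69 with equal weights. Pax6, a factor of dorsal and olfactory lineages, had 111 and 78 UMIs, at −0.90 (−1.33 to −0.47) and −1.11 with equal weights. The haemoglobin genes Hba-a1 and Hbb-bt were at −1.09 and −0.97, and at −1.04 and −0.86 with equal weights, and 5 of the haemoglobin genes passed the 1.5-fold rule used for lists, given next. Over all other nuclei these 2 genes were at −0.27 and −0.36, and their part as RNA from outside the nuclei was not tested. Gm29260, a noncoding RNA that led cluster 4, was at −0.99 over all members, at −0.52 with equal weights and at 0.39 without clusters 0 and 4, which reverses it. Arf5, Atp13a1, Rpl23a and Gm50163 made up the 10 lowest, at −0.87 to −0.94.

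**Figure D5:**
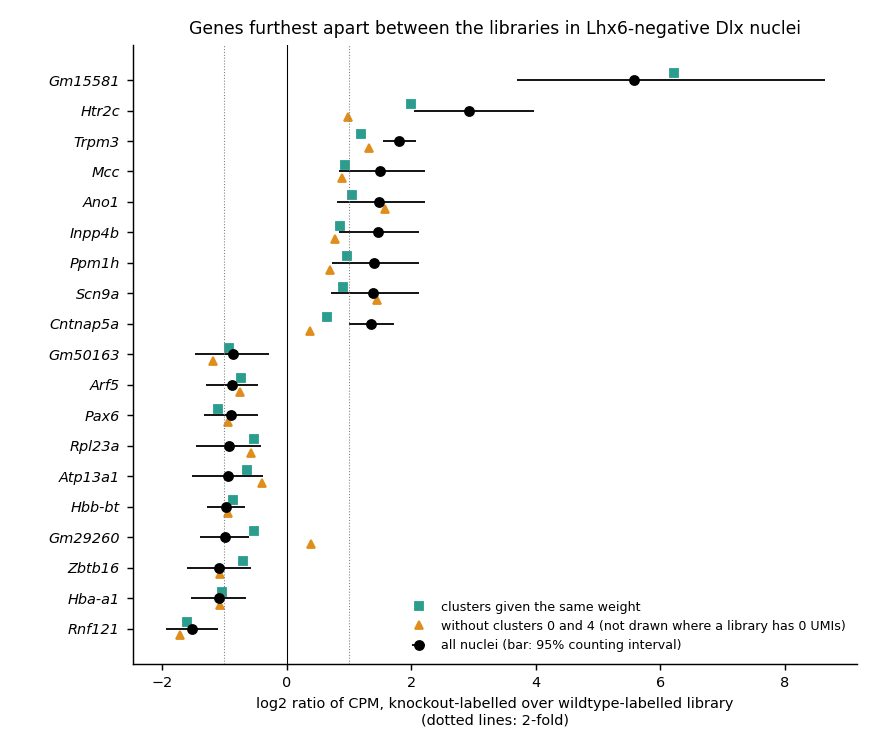
Log2 ratio of CPM, knockout-labelled over wildtype-labelled library, in Lhx6-negative Dlx nuclei for 9 of the 10 highest and the 10 lowest genes (black, with 95% counting intervals), with every cluster given the same weight (green squares) and without clusters 0 and 4 (orange triangles). Gm15581 and Rnf121 keep their place under equal weights, at 6.22 and −1.60, while Gm29260 changes side without the 2 clusters.

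For lists of genes the rule was a ratio of 1.5-fold with an interval not holding 0 among genes with 20 or more UMIs, which 3.47% of 11434 genes passed as higher and 2.23% as lower in the knockout-labelled library. In the Dlx and GABA core list, 1 of 13 genes passed as higher and 0 as lower, with a median of −0.26 that was 0.02 with equal cluster weights. Slc32a1 had 47 UMIs in 43 wildtype-labelled and 96 UMIs in 84 knockout-labelled nuclei, a log2 ratio of 0.64 (0.12 to 1.18) and 0.67 with equal weights. The enzymes of the same transmitter were on the other side of 0, Gad1 at −0.48 (−0.69 to −0.27) and −0.25 with equal weights, and Gad2 at −0.38 (−0.53 to −0.24) and −0.29. Neither enzyme gene reached 1.5-fold.

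Receptors of GABA and glutamate leaned towards the knockout-labelled library, with 7 of 33 genes passing as higher and 0 as lower and 27 of 33 above 0. The list's median of 0.34 was 0.09 with equal cluster weights and 0.12 without clusters 0 and 4. Gabbr1, a subunit of the metabotropic GABA receptor, had 104 and 211 UMIs, at 0.63 (0.29 to 0.99) and 0.71 with equal weights. Grik1, a kainate receptor subunit gene, had 143 and 343 UMIs, at 0.87 (0.59 to 1.17) and 1.09. Those 2 kept their size, whereas Gria3, at 0.76, was at 0.33 with equal weights and at −0.074 without clusters 0 and 4. Gabra5 and Grm8 also passed, at 1.75 and 0.59, and were at 1.85 and 0.57 with equal weights. Gabra5 varied with the settings, from 0.23 with a Dlx minimum of 2 UMIs to 2.99 without clusters 0 and 4.

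Among 33 migration and guidance genes, 4 passed as higher and 0 as lower, with a median of 0.19 that was 0.06 with equal weights. Nrp2, a semaphorin receptor that steers interneurons around the striatum, had 88 UMIs in 54 nuclei (84.8 CPM) and 269 UMIs in 113 nuclei (198 CPM), a log2 ratio of 1.22 (0.87 to 1.59) and 1.02 with equal weights. Of these, 44 and 159 UMIs were in cluster 0 and 1 and 40 in cluster 9. In all other nuclei Nrp2 was at 0.22 (0.13 to 0.30), and in Lhx6-positive Dlx nuclei at 0.51 (0.02 to 1.01). Robo1, the Slit receptor, had 1096 and 2155 UMIs, at 0.59 (0.48 to 0.69) and 0.45, and Efnb3 and Sema3c were at 0.69 and 0.83, and at 0.66 and 0.54 with equal weights.

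In the striatal list, 3 of 12 genes passed as higher: Rarb with 64 and 135 UMIs at 0.69 (0.25 to 1.14), the neuropeptide gene Tac1 with 14 and 36 at 0.98 (0.05 to 1.98), and the opioid receptor gene Oprm1 with 20 and 59 at 1.17 (0.42 to 1.98). With equal weights these 3 were at 0.60, 1.24 and 1.27. The factors Ebf1, Foxp2 and Isl1 of the same list were at −0.24, −0.46 and −0.03, and the list's median was −0.03. In the olfactory bulb and septal list of 9 genes, Zic1 (67 and 164 UMIs, 0.90, and 0.33 with equal weights) and Zic2 (8 and 30 UMIs, 1.52, and 0.36) passed as higher and Tshz1 (−0.66, and −0.27) and Pax6 as lower. At 1000 UMIs per nucleus, a Zic1 UMI was found in 6.01% and 10.7% of members and in 4.25% and 5.40% of reference nuclei. No gene of the 12 caudal eminence genes passed in either direction. In the medial eminence list, Maf was lower at −0.79 (−1.28 to −0.31) and Gbx1 and Zic4 higher at 2.78 and 0.91, of 15 genes, and with equal weights they were at −0.41, 2.89 and 0.72. In the hypothalamic list, 4 of 21 genes had 20 or more UMIs. The neuropeptide gene Agrp passed as higher, with 32 and 67 UMIs at 0.68 (0.05 to 1.33), 2 of the 4 were above 0, and the list's median of 0.19 was −0.34 with equal weights.

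Differentiation genes had a median of 0.00 over 16 genes, and Snhg11 alone passed, with 446 and 953 UMIs at 0.71 (0.54 to 0.87). Its ratio was 0.11 with equal weights and −0.06 within cluster 0. Outside the members Snhg11 was higher too, at 0.76 (0.73 to 0.79) over all other nuclei and at 2.55 (2.22 to 2.89) in Lhx6-positive Dlx nuclei. Tafa1, a secreted protein gene, had 136 and 326 UMIs, at 0.87 (0.58 to 1.17), with 0.39 under equal weights and −0.02 within cluster 0. It was at −0.01 over all other nuclei and at 1.08 (0.46 to 1.75) in Lhx6-positive Dlx nuclei. Of 6 measured retinoic acid genes, Rarb and Cyp26b1, the enzyme that clears retinoic acid, passed as higher, and 1 gene passed as lower. Cyp26b1 had 1 UMI against 37 UMIs in 15 nuclei, at 4.82 (2.25 to 10.16) and 4.72 with equal weights, and over all other nuclei 103 against 771 UMIs, at 2.71.

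Few metabolic genes, which the title of the series brings up, passed the rule. Of 33 glycolysis and citrate cycle genes, 0 passed as higher and 3 as lower: Pfkl, a phosphofructokinase subunit, with 36 and 24 UMIs at −0.97 (−1.78 to −0.19), Mdh2, mitochondrial malate dehydrogenase, with 74 and 56 at −0.79 (−1.32 to −0.27), and citrate synthase Cs with 84 and 72 at −0.61 (−1.08 to −0.14). With equal weights these 3 were at −0.79, −0.63 and −0.35. The list's median was −0.06. Of 32 insulin and mTOR genes none passed in either direction, and the median was −0.01. In the cholesterol and fatty acid list, 23 of 28 genes were above 0 and the median was 0.26, 0.27 with equal weights and 0.29 without clusters 0 and 4, beside −0.01 over the genes compared. There 1 gene passed, the fatty acid oxidation enzyme gene Acadm, with 9 and 29 UMIs at 1.30 (0.18 to 2.56) and 1.28 with equal weights. Cyp51 and Sqle, enzymes of cholesterol synthesis, had 125 and 203 UMIs at 0.31 (−0.02 to 0.65) and 69 and 119 UMIs at 0.40 (−0.04 to 0.85).

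Markers of other cells were measured beside these results. The cortical excitatory list summed to 507 CPM in wildtype-labelled and 396 CPM in knockout-labelled members, with 9 of 10 genes at 20 or more UMIs, and Bhlhe22 and Eomes passed as lower. The vascular, immune and blood list summed to 1156 and 759 CPM, with the 5 haemoglobin genes Hba-a1, Hba-a2, Hbb-bs, Hbb-bt and Hbb-y lower and Cldn5, a tight junction gene of endothelium, at 1.11 with 12 and 34 UMIs. Without clusters 0 and 4, Cldn5 was at −0.33. The dividing-cell list summed to 207 and 151 CPM under the rule's limit, with Kif11 lower at −1.14. The oligodendrocyte precursor list summed to 11.6 and 30.9 CPM, with Pdgfra alone at 20 or more UMIs (4 and 21 UMIs). The part of these cells in the differences above was not tested.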

How the data were processed

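Single-nucleus RNA was counted in 1 wildtype-labelled and 1 Cav1 knockout-labelled library. What the authors deposited is a matrix of raw UMI counts for each library, from Cell Ranger, version 6.1.1 per the file headers and 3.0.1 per the submitters' processing notes, which also name STAR and the GRCm39 build. Whether intronic reads and the strand were used is not given in the sources used here. Both matrices list 55416 features. The libraries held 9763 and 10811 barcodes with 19048835 and 22504908 UMIs. No doublets were removed in the main setting, because the rule that chose the nuclei does not remove them. Scrublet's automatic threshold called 0 nuclei in each library, while 54 and 56 members were among the 8% of nuclei with the highest scores.

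UMIs were summed over nuclei per library, with no pseudocount. With 1 library per genotype no test was made. Ratios have exact conditional binomial intervals, shares have exact binomial (Clopper-Pearson) ones, and the calculation was tested on simulated counts. Called means 2-fold among genes with 100 or more UMIs. Members were clustered with scanpy 1.11.5: 1500 variable genes per library, 20 components, 15 neighbours, Leiden resolution 0.8, leaving out Xist, Tsix, Y-linked and mitochondrial genes and the Cav1 locus. A name needed at least 3 markers. Named genes are the 10 highest and 10 lowest ratios in each comparison with an interval not holding 0 or by the smaller of the libraries' ratios, the 15 highest over other nuclei, the leading genes of clusters and list genes 1.5-fold apart. The members and lists were chosen with earlier results of these data known. Some genes that meet these rules are not reported here.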

Additional observations from a re-analysis of the deposited data

How the results depend on the processing

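The share difference of 0.17 points stayed within the main setting's interval, −0.64 to 0.98, under all alternatives run. It went from −0.02 with a 2% mitochondrial limit to 0.94 with 1000 genes per nucleus, near the upper limit. The alternatives' own intervals are not given here. The other counts depended on the settings, beside 24 genes 2-fold higher and 3 lower between the libraries, and 7 higher and 8 lower against Lhx6-positive nuclei. With 20 or more UMIs per gene these were 288 and 165, and 127 and 50, and with 300 or more they were 6 and 0, and 1 and 5. With the mean of per-nucleus CPM they were 44 and 6, and 29 and 22. A Dlx minimum of 5 UMIs gave 39 higher between the libraries and 13 lower against Lhx6-positive nuclei. Removing the highest doublet scores gave 6 lower between the libraries and 15 higher against Lhx6-positive nuclei. Leaving out nuclei with 2 or more excitatory UMIs gave 18 higher and 15 lower against Lhx6-positive nuclei, and 1000 genes per nucleus gave 5 lower between the libraries. Thinning before the rule gave 6 clusters instead of 10. With it, most remaining nuclei of clusters 0, 4, 8 and 9 fell in the same unnamed cluster. Cluster 6 was then unnamed and cluster 3 kept its name. A Dlx minimum of 5 UMIs left 9 nuclei of cluster 8, of which 5 joined an unnamed cluster. Cluster 2 took a prethalamic, striatal or radial glia name under some settings. Clusters 5 and 7 fell mostly in the same dividing-like cluster under several settings.

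Alternatives chosen after seeing the data concerned the mix of members. Without the 2 deep clusters there were 13 higher and 5 lower between the libraries, over fewer genes (2617). Against Lhx6-positive nuclei, whose own deep nuclei were kept, there were 20 higher and 83 lower. Equal cluster weights gave 14 and 8. Of the 56 genes followed, 4 changed sign once: Rarb to −0.36 with a Dlx minimum of 2 UMIs, and Gm29260 to 0.39, Gria3 to −0.074 and Cldn5 to −0.33 without the deep clusters. The causes were not tested. No paired analysis was possible because each genotype has 1 library.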

Other observations

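Some factors of hypothalamic neurons, chosen after their values were seen and below the 20 UMIs used for lists, were counted mostly in knockout-labelled members. They are 4 of the 21 genes of the hypothalamic list, whose median over its 4 better-counted genes was 0.19 and turned to −0.34 with equal cluster weights. Hmx2 had 0 UMIs against 15 in 7 nuclei, Otp 0 against 11 in 10 nuclei, and Sim1 0 against 13 in 4 nuclei. Prdm12 had 1 UMI against 18 in 13 nuclei. With 1 library per genotype these counts have no replicate check.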
